A study of Mus musculus with 2 samples.

Results

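The genes described here are the numbered centrosomal protein (Cep) genes of the mouse together with Pcnt (pericentrin), Pcm1 (pericentriolar material 1) and Ninl (ninein-like). They were taken as every protein_coding gene of GENCODE release M21 whose symbol is Cep followed by a number, plus those 3 genes by name. The rule used symbols and biotypes and no expression value, and it gave 39 genes among the 22028 protein_coding genes and 55536 genes of the release. Expression was read in forebrain of day 12.5 embryos, in 2 pools.

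The centrosome consists of a pair of centrioles, barrels of microtubules, inside a matrix of pericentriolar material that anchors the gamma-tubulin ring complexes from which microtubules grow. The older centriole carries distal and subdistal appendages, through which it docks at the membrane and grows a cilium, and small granules called centriolar satellites move proteins to both structures. In the embryonic forebrain, radial progenitor cells extend a primary cilium into the ventricle between divisions and use the same centrioles as spindle poles, and inherited loss of several of these proteins causes microcephaly or ciliopathies in humans.

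Both pools came from embryos of strain B6NCrl, with the sexes mixed and no treatment named. Pool 1 held the forebrains of 120 embryos and pool 2 those of 68 embryos, and each gave 1 library from 10 ng of RNA by oligo-dT priming, full-length cDNA amplification and tagmentation. The labels call the pools biological replicates and name 1 group with no contrast, so the question addressed is at what level each gene was expressed and how far the pools differed. Every ± is an SD over n = 2 pools and may be partly technical. The smallest two-sided p that 2 pools allow in an exact sign-flip test is 0.5, so differences are described without a test.

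The depth was 33373843 gene counts for pool 1 and 34406648 for pool 2, of which the Cep genes took 71623 and 73636. All 6 forebrain markers looked at were detected in both pools and none of 4 midbrain and hindbrain markers was, with En2 listed at 0. Of the forebrain markers 3 were higher in pool 1 and 3 in pool 2, with Dlx2 at 104 and 67.2 TPM and Emx1 at 55.9 and 69.7 TPM in pools 1 and 2. The 7 markers of multiciliated cells were low but all higher in pool 2, summing to 15.97 and 24.62 TPM, and 3 of the 7 were detected. Markers of red cells summed to 5889 and 7964 TPM and those of mesenchyme to 461 and 539 TPM, also higher in pool 2. Those of endothelium summed to 51.3 and 50.1 TPM. These are bulk samples, in which fewer cells of a type and less RNA per cell cannot be told apart.

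Nearly the whole set was expressed. Levels are in TPM, a transcript abundance per length that is scaled to a total of 1000000 in each library. A gene was called detected where both pools reached a TPM of 1. Of the 39 genes 38 were detected, against 58.9% of all protein_coding genes, and 30 reached 10 TPM in both pools, against 40.2%. The median of the genes' mean TPM was 19.8, with quartiles of 12.6 and 36.9, beside 4.08 TPM for all protein_coding genes and 21.9 TPM for the detected ones. So the set stood well above the median of all protein_coding genes and near that of genes expressed in this tissue at all. Only 4 of the 39 genes reached 50 TPM in both pools, and the highest was 27.3-fold above the lowest detected one. The summed level of the members was 1019 TPM in pool 1 against 1013 in pool 2.

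**Figure D1:**
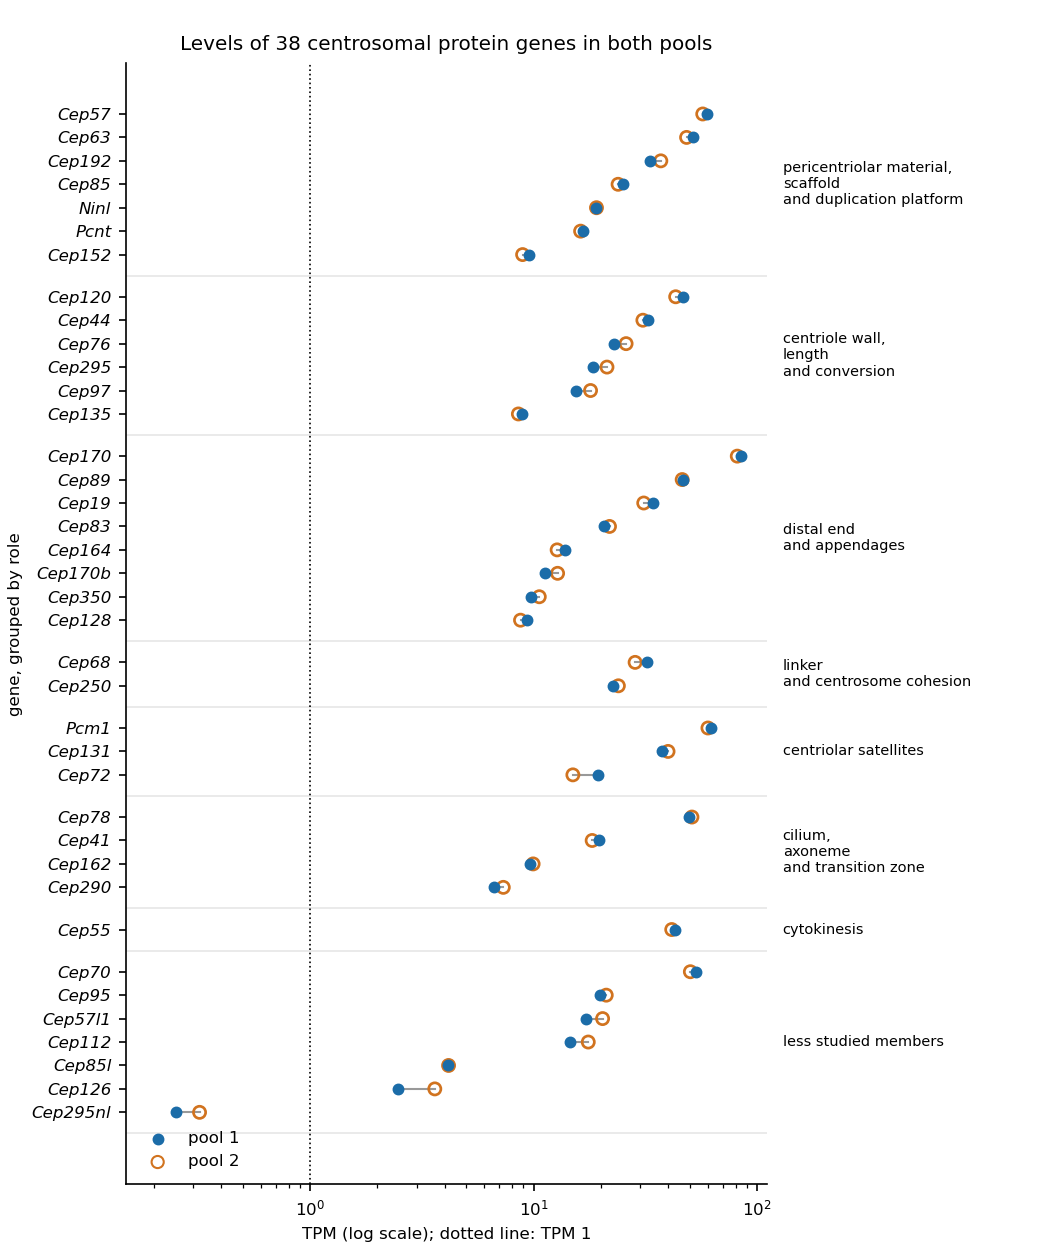
TPM of 38 of the 39 genes in pool 1 (filled points) and pool 2 (open points) on a log axis, grouped by role and ordered by mean level, with a grey line joining the pools. Cep170 is highest at 84.2 and 81.4 TPM, Cep295nl is the single gene below TPM 1, and most role groups span several-fold.

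The appendage group held both the highest gene of the set and some of its low ones. Cep170, which sits on the subdistal appendages of the mature centriole, had 84.2 and 81.4 TPM in pools 1 and 2, a mean of 82.8 ± 1.95 TPM (SD, n = 2) that placed it in the top 9.48% of protein_coding genes. It lies on chromosome 1 (chr1:176733653-176814067, GRCm38, ENSMUSG00000057335.11). The lower of its pools exceeded the higher pool of every other member. Cep89, a distal appendage protein, followed at 46.6 and 46.2 TPM. Cep19, a small protein that helps start ciliogenesis, stood at 34.2 and 31.1 TPM. Cep83, the distal appendage protein on which others assemble, had 20.6 and 21.8 TPM, and Cep164, which recruits the kinase Ttbk2 to begin cilium growth, 13.8 and 12.7 TPM. The RNAs of the distal appendage proteins were therefore not at a common level, since Cep89 exceeded Cep164 more than 3-fold in both pools. Over protein_coding transcripts alone the 2 genes lay closer, with 32.4 and 31.4 TPM for Cep89 and 13.2 and 11.8 TPM for Cep164. That sum for Cep164 includes Cep164-205, of 360 bases, with 5.74 and 4.03 TPM but 2.88% of the gene's counts. The highest coding transcripts of the 2 genes lay further apart than these sums. Cep89-201 had 29.2 and 27.5 TPM and Cep164-201 had 6.8 and 7.23 TPM. In the older annotation release, M4, Cep89 had 49.3 and 48.5 TPM and Cep164 had 8.29 and 8.45 TPM. Protein was not measured. Cep350, a large microtubule-anchoring protein, reached 9.75 and 10.6 TPM. Cep128, a subdistal appendage protein, was the lowest of the 8 at 9.37 and 8.73 TPM. The group median was 17.2 TPM.

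Among the 7 genes of the pericentriolar material and the duplication platform, whose median was 24.5 TPM, Cep57 and Cep63 were highest and Cep152 lowest. Their proteins form one ring around the centriole wall, on which Plk4, the kinase that starts centriole duplication, is recruited. Cep57 had 59.7 and 57.0 TPM, a mean of 58.4 ± 1.87 TPM (SD, n = 2). Cep63 had 51.6 and 48.3 TPM, a mean of 49.9 ± 2.32 TPM (SD, n = 2). Cep152 stood far lower, at 9.49 and 8.92 TPM, a mean of 9.21 ± 0.403 TPM (SD, n = 2). The pools of these 3 genes did not overlap. Over protein_coding transcripts alone Cep63 was above Cep57, with 41.5 and 39.9 TPM against 29.9 and 31.3 TPM. Cep192, which recruits pericentriolar material and the kinases Aurora A and Plk4, gave 33.1 and 37.0 TPM in all its transcripts, a level that depends on which of them are counted, as described with the transcripts. Cep85, a binding partner of the duplication factor Stil, had 25.2 and 23.9 TPM. Ninl, a binder of gamma-tubulin complexes, and Pcnt, the large scaffold of the matrix, came next, with 19.0 and 19.1 TPM for Ninl and 16.6 and 16.2 TPM for Pcnt. The partner kinase gene Plk4, which is not in the set, had 51.4 and 54.2 TPM.

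The 6 genes of the centriole wall and its length ran from 8.69 to 44.9 TPM. Cep120, required for centriole elongation, led with 46.7 and 43.2 TPM, a mean of 44.9 ± 2.51 TPM (SD, n = 2). Cep44, which acts when a new centriole becomes able to form a centrosome, had 32.3 and 30.8 TPM. Cep295, which acts in the same conversion, had 18.3 and 21.3 TPM. These 2 genes of one step kept the same order in both pools. Cep76, which limits reduplication, had 22.8 and 25.9 TPM, and Cep97, the partner of the centriole cap protein Ccp110, had 15.5 and 17.96 TPM. Cep135, a component that links the cartwheel at the core of the new centriole to its wall, closed the group at 8.84 and 8.54 TPM, a mean of 8.69 ± 0.212 TPM (SD, n = 2). Cep135, Cep152, Cep63 and Pcnt are all genes whose loss in humans causes small brain size, and their 4 means spread from 8.69 to 49.9 TPM.

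Of the satellite proteins Pcm1, the scaffold on which satellites form, was second of the whole set with 61.9 and 60.2 TPM, a mean of 61.0 ± 1.22 TPM (SD, n = 2). In the older annotation release Pcm1 had 32.1 and 32.7 TPM, below Cep57 among others, which had 62.5 and 59.9 TPM there. Cep131 had 37.6 and 39.9 TPM. Cep72 was lowest of the 3 at 19.4 and 14.97 TPM, a mean of 17.2 ± 3.10 TPM (SD, n = 2). Its counts were closer, at 1280 and 1229, and in the older annotation release it had 12.1 and 11.6 TPM. The linker that holds the centrosomes together was represented by Cep68 with 32.1 and 28.4 TPM and by Cep250, its anchor on the centriole, with 22.5 and 23.9 TPM. Cep55, the midbody protein that recruits the membrane-cutting machinery at the end of cell division, had 42.7 and 41.4 TPM, a mean of 42.1 ± 0.891 TPM (SD, n = 2).

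Of the 5 cilium genes, 4 are described by name. Cep78, mutated in a human cone-rod dystrophy with hearing loss, had 49.5 and 51.0 TPM, a mean of 50.3 ± 1.05 TPM (SD, n = 2). Cep41, needed for glutamylation of the axoneme, had 19.6 and 18.3 TPM. Cep162, which acts at the base of the axoneme, reached 9.60 and 9.94 TPM. Cep290, the gatekeeper of the transition zone and a frequent ciliopathy gene, was lowest at 6.63 and 7.31 TPM, a mean of 6.97 ± 0.481 TPM (SD, n = 2).

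Among 7 less studied members Cep70, a gamma-tubulin binder, stood apart at 53.2 and 50.2 TPM, the fourth of the whole set. Cep95 had 19.8 and 21.1 TPM and Cep112 14.5 and 17.5 TPM. Cep85l, mutated in a human disorder of neuronal migration, had 4.15 and 4.16 TPM. Cep126, a protein at the base of the cilium, had 2.46 and 3.61 TPM, a mean of 3.04 ± 0.813 TPM (SD, n = 2). The one gene below the detection level was Cep295nl, at 0.25 and 0.32 TPM from 9 and 13 counts, where 3 counts would correspond to 0.0833 and 0.0738 TPM.

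In each of the 4 pairs of genes that share a name stem, the gene with the longer name was the lower one in both pools. Cep170b had 11.2 and 12.8 TPM beside the 84.2 and 81.4 TPM of Cep170. Cep57l1 had 17.1 and 20.3 TPM beside the 59.7 and 57.0 TPM of Cep57. Cep85l and Cep295nl lay below Cep85 and Cep295 by the values already given. Some members were very even between pools in TPM, with a coefficient of variation (SD as a percent of the mean) of 0.170% for Cep85l, 0.520% for Ninl and 0.747% for Cep89. The counts of Cep85l were less even, at 335 and 381, and the counting interval of the ratio of Cep89 left out 0. The median over members was 4.42%, beside 4.89% for detected protein_coding genes. In the order of mean TPM, 22 of 38 neighbouring pairs had pool values that overlapped, among them every neighbouring pair from Cep83 at place 18 to Cep112 at place 28. Genes further apart in that run could still be separate in both pools, as Cep83 and Cep112 were.

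Other centrosome genes from 5 lists gave the setting. Of their 57 genes 56 were detected, with a median of 29.9 TPM. In the list on centriole duplication and elongation all 14 were detected, from Plk4 at 52.8 ± 1.94 TPM (SD, n = 2), Ppp1r35 at 45.2 ± 2.57 TPM and Ccp110 at 44.9 and 35.1 TPM in the pools down to Kif24 at 12.6 ± 1.97 TPM and Rttn at 10.4 ± 0.658 TPM. The scaffold Akap9 led the list on pericentriolar material at 231 ± 0.686 TPM (SD, n = 2), and all 12 of that list were detected. Of 12 appendage and linker genes 11 were detected, led by Odf2 at 98.1 ± 8.41 TPM (SD, n = 2), and Ccdc68 was not, at 0.53 and 0.36 TPM. All 9 satellite genes were detected, led by Fopnl at 138 ± 0.127 TPM (SD, n = 2). The 10 genes of mitotic entry and the spindle were all detected with a median of 112 TPM, led by Cdk1 at 298 ± 2.31 TPM (SD, n = 2), while the highest Cep gene lay at 82.8 TPM. One gene of the satellite list, Fopnl, carries the name Cep20 in RefSeq but not in release M21, so the naming rule leaves it out.

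Between the pools the set was nearly level. Expected counts were scaled with TMM (the trimmed mean of M values, which sets the scale from the bulk of genes), and the log2 ratio of pool 1 over pool 2 was taken with a prior count of 1 over the 19046 genes whose counts averaged 10 or more, all 39 members among them. The median log2 ratio of the members was 0.04, beside −0.0026 for all genes in the table and 0.01 for protein_coding genes. Ratios were above 0 in 24 members and below 0 in 15, while 53.4% of protein_coding genes were above 0. No member was more than 25% higher in pool 1, against 7.82% of all genes in the table. The members more than 25% higher in pool 2 were 2, against 15.7% of genes. Depth differs between the members and all genes, and among the 12117 protein_coding genes averaging 100 counts or more the share over 25% apart either way was 7.65%. On the same scaling Cep170b alone of the 38 members of that depth was past that difference, with Cep126 just short of it at −0.317. Scaled over genes of that depth alone, the members past it were 2, Cep170b and Cep126, and the share of all genes was not recomputed on that scale. The sign of the small ratios turned with the scaling, since with spike-in totals 38 of 39 members were higher in pool 2 and the median was −0.12, beside a median of −0.17 for all genes on that scale.

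The 2 members past that difference were Cep170b and Cep295nl. Cep170b, the paralog of Cep170, had 1109 counts in pool 1 and 1551 in pool 2, and was 1.33-fold higher in pool 2, with a log2 ratio of −0.41 and a 95% counting interval from −0.52 to −0.30. That interval covers the counting of reads only. No molecular identifiers were used, so copies made in amplification were not told apart, and the interval may be too narrow. Its TPM differed less, at 11.2 against 12.8, a log2 ratio of −0.19. The transcripts moved unequally. The transcripts Cep170b-202 and Cep170b-211, each of 1574 codons, had 3.06 and 3.08 TPM in pool 1, against 5.35 and 4.66 TPM in pool 2. The shorter Cep170b-201, of 658 codons, had 2.60 TPM in pool 1 against 1.12 in pool 2. These long forms were higher in pool 2 and the short form in pool 1. Another long form at a low level, Cep170b-204 of 1539 codons, went the other way, with 0.34 TPM in pool 1 and a listed 0 in pool 2. Cep295nl had a log2 ratio of −0.42, but with 9 and 13 counts its interval ran from −1.86 to 0.88 and included 0.

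The next members at the low end were Cep126 at −0.32 (172 and 226 counts), Cep57l1 at −0.19 (596 and 714 counts) and Cep295 at −0.13. Beside Cep126, the cilium-base gene, stand the values of the multiciliated markers, of which Foxj1, the regulator of motile cilia, had 8.04 and 11.2 TPM and Deup1, the scaffold of mass centriole production, 0.97 and 2.34 TPM. Those 7 markers were all higher in pool 2, and their part in the ratio of Cep126 or of Cep170b was not tested. At the other end Cep41 had 1026 counts in pool 1 and 878 in pool 2, 1.23-fold apart, with a log2 ratio of 0.30 and an interval from 0.17 to 0.43. Cep19 and Cep120 followed at 0.15 each, Cep68 at 0.14 and Cep72 at 0.13. In 25 of 39 members the counting interval included 0, and in 14 it did not. The same share over all genes was not computed, so the 14 are not read as a trait of the set.

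**Figure D2:**
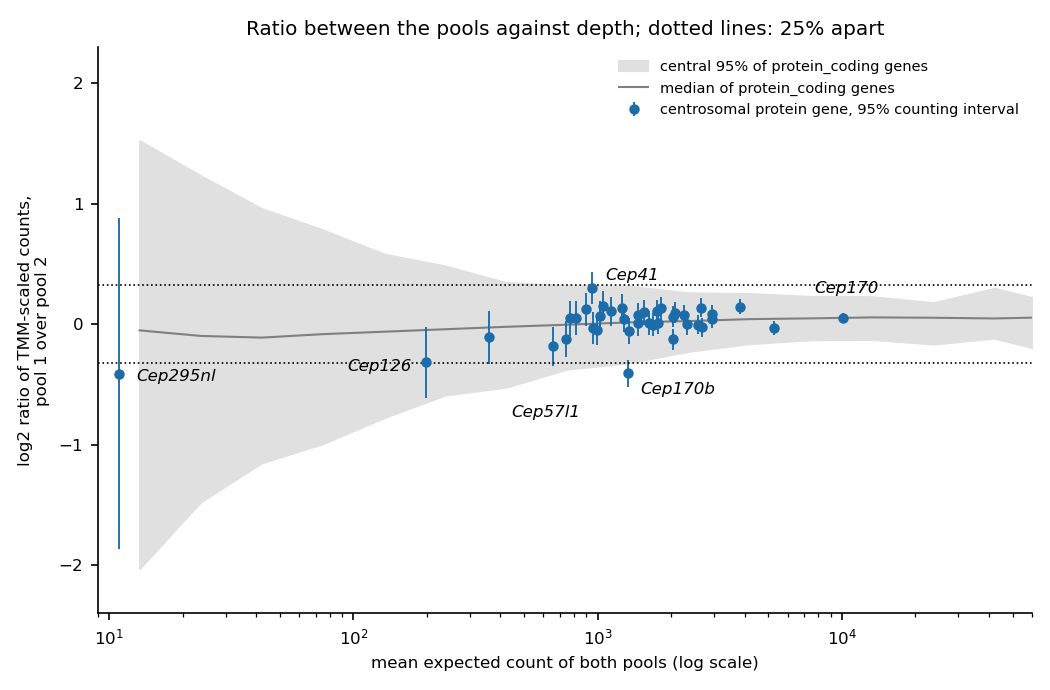
Log2 ratio of TMM-scaled counts, pool 1 over pool 2, against the mean expected count (log axis) for the 39 genes with 95% counting intervals, over the central 95% (grey band) and median (grey line) of protein_coding genes at the same depth. Most members lie between the dotted lines (25% apart), Cep170b at −0.41 lies just outside the band, and Cep295nl has the widest interval.

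A gene's TPM sums over transcripts that differ in whether they are annotated to make protein. Among the 38 detected members the median share of TPM in protein_coding transcripts was 79.7%, beside 91.2% for detected protein_coding genes. By counts, which weight long transcripts more, the shares were 91.2% and 96.4%. The members had a median of 7.5 annotated transcripts, beside 5. The highest transcript was not protein_coding in 1 of 38 members, against 8.89% of detected protein_coding genes. That gene was Cep85l, in which the processed transcript Cep85l-202 of 1328 bases had 1.80 and 1.77 TPM and the coding Cep85l-205 of 7425 bases had 1.60 and 1.89 TPM. The order of these 2 transcripts reversed between the pools, and by counts the coding one held 77.4%. In 31 of 38 members the highest coding transcript was the one with the longest annotated coding sequence.

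**Figure D3:**
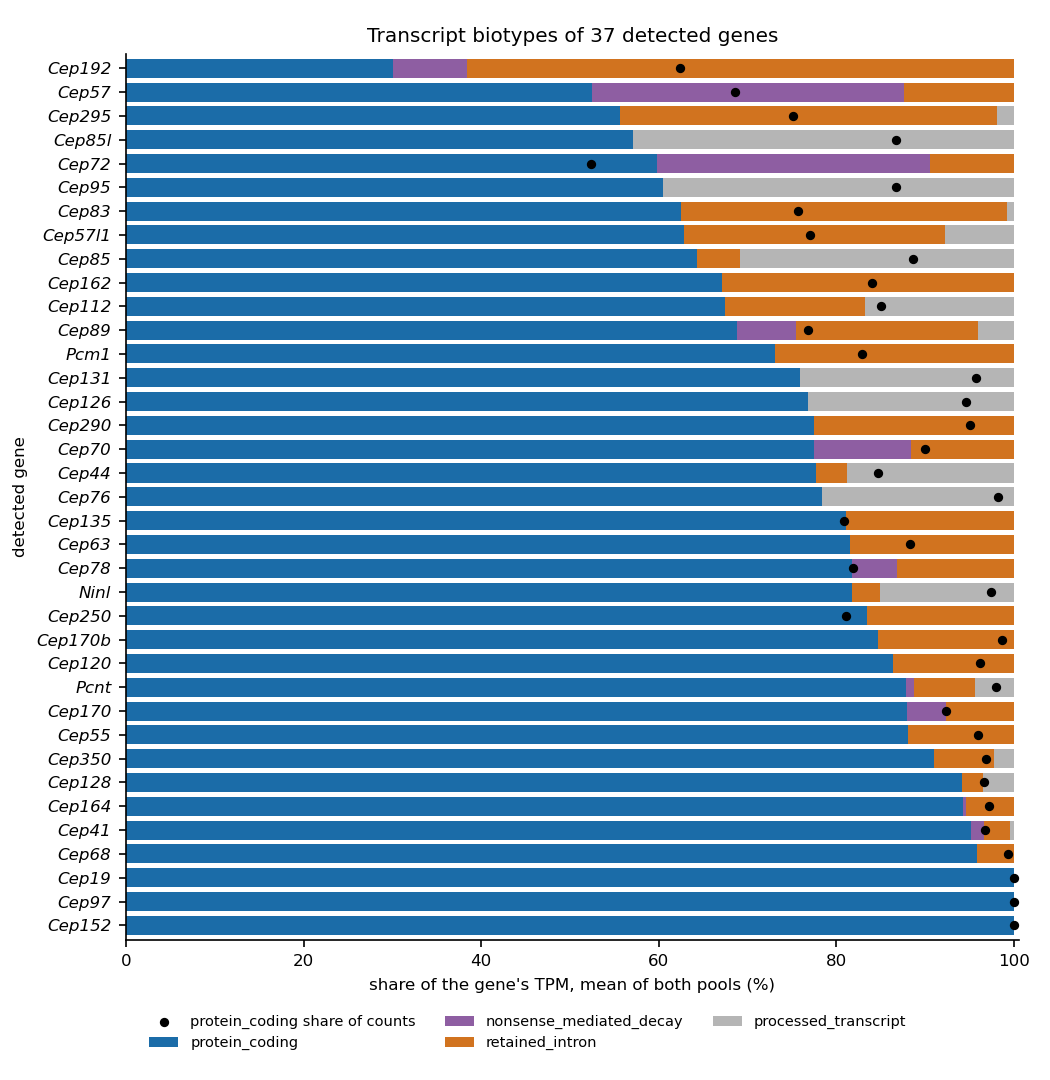
Share of the TPM of 37 of the 38 detected genes (mean of both pools, in percent) by transcript biotype, ordered by the coding share, with the coding share of expected counts as black points. Cep192 has the lowest coding share of TPM at 30.1%, and Cep19, Cep97 and Cep152 reach 100%.

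Cep192 changed its place most when only coding transcripts were summed. Its coding transcript Cep192-201, of 8093 bases and 2514 codons, had 11.7 and 9.45 TPM in the pools, or 30.1% of the gene's TPM and 62.4% of its counts. Retained-intron transcripts held 61.6% of the TPM, the largest by mean TPM being Cep192-204 of 1425 bases with 5.56 and 6.31 TPM and Cep192-207 of 2607 bases with 4.32 and 6.93 TPM. Counted by coding transcripts alone, Cep192 had 10.6 ± 1.58 TPM (SD, n = 2) and went from place 11 to place 28. Cep57 went from place 3 to place 10, with 30.6 ± 0.997 TPM (SD, n = 2) in coding transcripts, and 26.8% of its TPM lay in Cep57-207, annotated as a target of nonsense-mediated decay, the pathway that removes transcripts with early stop codons. Pcm1 kept second place at 44.6 ± 3.34 TPM (SD, n = 2), although 26.9% of its TPM lay in the retained-intron transcript Pcm1-203. That place rests in part on a short coding transcript, Pcm1-202 of 691 bases and 157 codons. It had 17.8 and 12.5 TPM in the pools but 3.68% of the gene's counts. The long coding transcript Pcm1-201, of 6624 bases, had 29.2 and 29.7 TPM. Cep97 moved up by 9 places, and 100% of its TPM was coding. In Cep72 the transcript with the most counts was Cep72-205, a nonsense-mediated decay form with 34.9% of them, and the coding share was 59.8% of TPM. In Cep164 a short coding transcript, Cep164-205, held 36.8% of the TPM. Cep152 had a single annotated transcript. Over the 38 genes the orders by total and by coding TPM had a Spearman rho of 0.92, a description across genes that share libraries, and 25 kept their place within 3. The median coding TPM was 15.7.

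The older annotation release, M4, gave other levels for a limited set of genes. In 8 of 39 members the mean TPM in M21 was more than 25% above that in M4, and in no member under 0.8 times. The same shares over all protein_coding genes were not computed, so these counts describe the members and are not read as a trait of the set. Cep192 differed most, with 33.1 and 37.0 TPM in M21 and 17.2 and 15.9 TPM in M4, a ratio of 2.12. Pcm1 followed with 61.9 and 60.2 TPM against 32.1 and 32.7 TPM, a ratio of 1.88, and Cep164 with 13.8 and 12.7 TPM against 8.29 and 8.45 TPM, a ratio of 1.59. The other 5 were Cep72 at 1.45, Cep63 at 1.41, Cep290 at 1.37, and Cep76 and Cep126 at 1.3 each. In these 8 genes a median of 53.9% of the M21 TPM, from 21.6% to 100%, lay in transcripts that M4 does not hold, while in the other 31 the median was 0%. Newer transcripts did not always go with a higher total, since in Pcnt 97.1% of the TPM lay in them and the ratio was 1.09. The 20 members with no newer transcript are among those 31, whose ratios ran from 0.930 to 1.13.

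**Figure D4:**
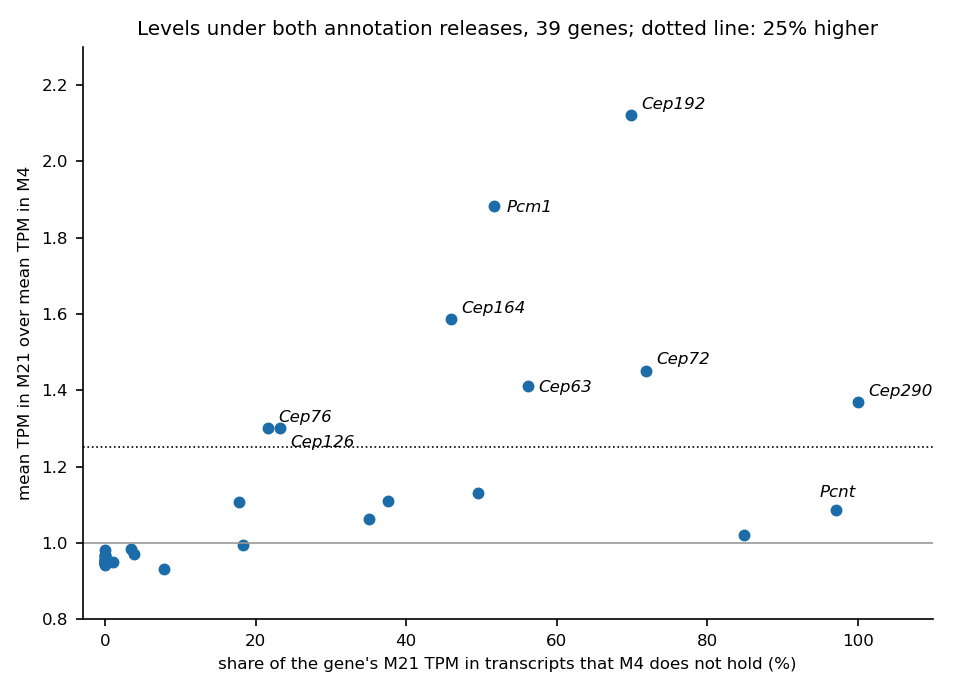
Ratio of mean TPM in release M21 to that in M4 (y axis) against the percent of the gene's M21 TPM in transcripts that M4 does not hold (x axis), 1 point per gene, 39 genes. The 8 genes above the dotted line (25% higher) all have at least 21.6% of their TPM in newer transcripts, and Pcnt lies at 97.1% with a ratio of 1.09.

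Longer members tended to have lower levels. Across the 38 detected genes mean TPM and mean transcript length had a Spearman rho of −0.51, beside −0.25 across 12966 detected protein_coding genes, and these are descriptions across genes of the same 2 libraries. That length weights each transcript by its abundance, so it is not independent of TPM. With the longest annotated coding length the rho was −0.36 across the 38 genes, and the value for all detected genes was not computed. The median transcript length was 3512 bases in the set and 2498 bases in detected protein_coding genes. The number in a Cep name was given for the protein's size, and across 36 genes it had a rho of 0.88 with the longest annotated coding length. The name number and the level had a rho of −0.46. Cep350, with 3095 codons, Pcnt, with 2916 codons, and Cep192, with 2514 codons, were the longest. Cep19, with 163 codons, was the shortest at 32.6 ± 2.21 TPM (SD, n = 2). TPM is already divided by length, and what part length plays in these levels was not tested.

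Many members start next to another gene that is read in the other direction. Taking the outermost annotated start of each gene, 11 of 39 members (28.2%) had a protein_coding head-to-head neighbour within 1000 bases, beside 6.76% of all and 10.1% of detected protein_coding genes. The rule for members did not use position, and expressed genes have such neighbours more often, so the second share is the closer background. In 5 pairs the starts were within 100 bases, among them Cep44 and Fbxo8 at 43 bases, Cep19 and Pigx at 60, Cep57l1 and Sesn1 at 64, and Cep95 and Ddx5 at 67. The other 6 were Cep128 and Tshr, Cep89 and Faap24, Cep290 and Tmtc3, Cep76 and Psmg2, Cep170 and Sdccag8, and Cep57 and Fam76b, from 154 to 609 bases apart. An outermost start need not be the one of the highest coding transcript. In Cep57l1 that transcript begins 63940 bases from the outermost start, and in Cep44 190 bases from it. The sequences between the outermost starts are shown for 2 close pairs. In both, the highest coding transcript of the Cep gene begins within 23 bases of its outermost start. Which start the neighbour used most was not examined. The sequences are RefSeq sequence of GRCm38.p6, 5′ to 3′ on the strand of the Cep gene. They overlap no exon annotated in release M21, and have a CCAAT word in capitals where present.
Cep19 and Pigx, chr16:32099741-32099799, plus strand: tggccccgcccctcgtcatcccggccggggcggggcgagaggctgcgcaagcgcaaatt
Cep95 and Ddx5, chr11:106789186-106789251, plus strand: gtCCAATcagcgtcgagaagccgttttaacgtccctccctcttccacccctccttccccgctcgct

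The 2 genes of such a pair could differ widely in level. Across the 66 bases between them, Cep95 had 19.8 and 21.1 TPM and Ddx5, an RNA helicase gene, 418 and 397 TPM. Cep19 had 34.2 and 31.1 TPM and Pigx, of the glycosylphosphatidylinositol anchor pathway, 99.0 and 104 TPM. In Cep44 and Fbxo8 the levels lay closer, with 32.3 and 30.8 TPM for Cep44 against 25.5 and 28.6 TPM for Fbxo8. Of the 11 neighbours 10 were detected, and 5 were higher than their Cep gene. The exception was Tshr, the thyrotropin receptor gene, at 0.72 and 0.94 TPM beside Cep128 at 9.37 and 8.73 TPM. Another 5 members had only a non-coding head-to-head neighbour, and all of these were well below the Cep gene, among them Cep83os at 2.38 and 2.02 TPM beside Cep83 at 20.6 and 21.8 TPM.

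**Figure D5:**
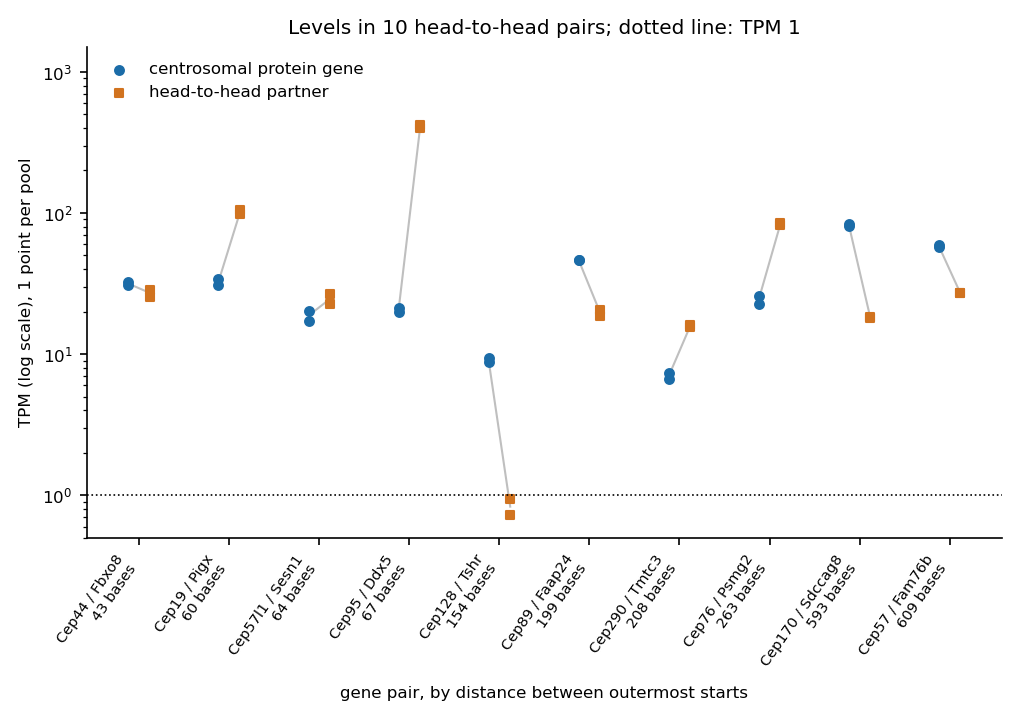
TPM (log axis) of 10 of the 11 Cep genes with a protein_coding head-to-head neighbour (circles) and of that neighbour (squares), 1 point per pool, ordered by the distance between the outermost starts. Ddx5 lies far above Cep95, and Tshr is the single neighbour under TPM 1.

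Centriole and cell division genes are often read in step with the cell cycle, so promoter windows were searched for words known from such genes. RefSeq windows of 300 bases (250 before and 50 after a start) were matched to 32 of the 39 members. In 24 of the 32 the RefSeq start lay within 100 bases of the start of the highest coding transcript. The E2F word, TTCCCGC or TTCGCGC on either strand, was present in 11 of 32 windows (34.4%), beside 11.6% of 10112 windows of detected protein_coding genes and 6.003% of all 32851 windows. The cell cycle homology region, TTTGAA on either strand, was present in 8 (25%), beside 11.03% of detected windows and 17.9% of all windows. CCAAT was present in 15 (46.9%), beside 39.3% and 37.4%. An X-box, written GTTNCC, 2 bases and GGNAAC, the word of the ciliary Rfx factors, was found in 1 window, that of Cep19, beside 0.504% and 0.451%. No searched word contains another, and a match is a description of the window and not a binding site. Some windows with a word lay further than 100 bases from the start of the highest coding transcript. They include Cep170, Cep44, Cep63, Cep70 and Pcnt with the E2F word, and Cep57l1 with TTTGAA, which was 63732 bases away. The counts therefore describe RefSeq windows and not always the promoter of the highest coding transcript. Stretches with the E2F word are shown, because this word is the one whose share lay the most percentage points above that of detected genes. The 5 printed are those in which neither the word nor the 15 bases on each side overlap an exon annotated in release M21. The Pcnt stretch ends just past the RefSeq start of that gene. All 5 are RefSeq sequence of GRCm38.p6, 5′ to 3′ on the strand of the gene, with the word in capitals.
Cep112, chr11:108425119-108425155, plus strand: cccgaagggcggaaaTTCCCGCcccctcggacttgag
Cep152, chr2:125625266-125625302, minus strand: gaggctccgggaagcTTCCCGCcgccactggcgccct
Cep41, chr6:30693919-30693955, minus strand: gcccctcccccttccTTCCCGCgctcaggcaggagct
Cep57, chr9:13827183-13827219, minus strand: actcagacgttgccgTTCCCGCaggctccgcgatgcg
Pcnt, chr10:76442910-76442946, minus strand: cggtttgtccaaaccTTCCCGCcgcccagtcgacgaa

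All 5 carry the same TTCCCGC word on the strand of the gene, at different distances from the RefSeq start, from 191 bases before it in Cep41 to 19 bases before it in Pcnt. The word did not go with a particular level. Members with an E2F word had a median of 19.8 TPM and those without one 19.0 TPM, and the 5 printed genes range from 9.21 ± 0.403 TPM (SD, n = 2) in Cep152 to 58.4 ± 1.87 TPM in Cep57. The list of mitotic entry genes gave other counts, with TTTGAA in 6 and CCAAT in 7 of 7 windows and the E2F word in 1. In the list on centriole duplication and elongation the E2F word was in 3 of 12 windows, TTTGAA in 2 and CCAAT in 6. For pericentriolar material these were 1, 2 and 3 of 8 windows, and for appendages and linker 1, 2 and 8 of 11. In the 5 windows of satellite genes they were 0, 0 and 2. Those counts are small and describe only these windows.

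Some counts are uncertain. Exons of 13 members overlap those of another gene, mostly on the other strand, and whether the counting used strand is not given in the sources used here. In Cep63 the partner is Anapc13, in Cep85l it is Pln, and in Cep295 it is Taf1d with 3 further genes. Counts that were not whole numbers (by more than 0.01) occurred in 8 members: Cep250, Cep290, Cep295, Cep63, Cep85, Cep85l, Cep89 and Pcnt. Cep85 and Cep89 have no exon overlap with another gene, and 7 of the 13 members that do had whole counts. The other 31 had whole counts in both pools, and 66.4% of detected protein_coding genes did.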

How the data were processed

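PolyA+ RNA of 2 forebrain pools was sequenced by the authors, and 8 of their deposited gene and transcript tables were used. Expected counts, as deposited, are estimates of the reads of a gene or transcript before any scaling. TPM, as deposited, is scaled to 1000000 per library, spike-ins included, and the deposited FPKM is per length and library total. The posterior mean TPM the authors deposited was treated as a score. The assembly is mm10 with GENCODE M21, and M4 as the alternative, per the notes deposited with the files. Aligner and quantifier, with versions: not given in the sources used here. Entries naming no gene (5.74e-05% and 9.00e-05% of counts) were left out.

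Rounded counts were scaled with edgeR 4.0.16 (TMM) or, as an alternative, DESeq2 1.42.0, in R 4.3.3. The other tools were Python 3.11.15, numpy 2.4.6, scipy 1.17.1, pandas 2.3.3 and matplotlib 3.10.9. Ratios used genes averaging 10 or more counts and a prior count of 1, with exact binomial (Clopper-Pearson) intervals at 95%, and over 25% was called apart. The ratio step was tested on simulated data. Members given in full are the 8 highest and 8 lowest, the 5 at each end of the ratio, the ends of each role group and the paralog pairs. Alternatives were other scalings, filters, prior counts, units, the older release and single pools. The members, lists and motifs were chosen with earlier results of these data known, and the transcript, release and position comparisons after values were seen. Values of 1 member are counted in the totals but not reported here.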

Additional observations from a re-analysis of the deposited data

How the results depend on the processing

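The 38 detected genes were 36 to 38 at 0.5 or 5 TPM, at 10 counts, with M4, with the posterior mean and in the single pools. The median level was 19.8 TPM, 19.6 to 21.1 TPM in the single pools, 21.6 TPM with spike-ins left out and, chosen after seeing the data, 15.6 TPM over protein_coding transcripts only. Members over 25% apart were 2, and 4 with spike-in totals, adding Cep126 and Cep57l1, 1 with a prior count of 5, which leaves Cep170b, and 0 at 1.5-fold or 2-fold. With the deposited TPM they were 3, Cep126, Cep295nl and Cep72, without Cep170b. The median log2 ratio of 0.04 became −0.12 with spike-in totals, and the share of members higher in pool 1 went from 61.5% to 2.56%. The highest transcript was not protein_coding in 1 gene, in 0 with release M4, and in 0 to 1 in the single pools. For single genes, the mean TPM moved by more than the SD in 25 of 39 with M4 and in 12 with the posterior mean. The ratio left its counting interval in 36 of 39 with spike-in totals and in 9 with TPM. No paired analysis was possible because there is 1 group. Leaving out a pool leaves no ratio. Depth limits Cep295nl, with 9 and 13 counts, and Cep126 most.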

Other observations

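A second gene outside the naming rule, chosen after its values were seen, is listed in RefSeq as Cep43 and in release M21 as Fgfr1op. It had 32.5 and 31.0 TPM, a mean of 31.7 ± 1.03 TPM (SD, n = 2). Fopnl, the gene listed there as Cep20, had 137.99 and 138.17 TPM, above every one of the 39 members in both pools. Under the RefSeq names it would be the highest numbered centrosomal protein gene, in place of Cep170.

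Non-coding genes with a Cep name were low. Cep83os had 2.38 and 2.02 TPM, Cep112os1 had 0.13 and 0.23 TPM, and Cep112it had 0.1 and 0.23 TPM.

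The transcript shares of Cep192 differed between the pools more than its counts did. Its coding share of TPM was 35.2% in pool 1 and 25.5% in pool 2, while the gene had 2937 and 2916 counts. Cep72 showed the same kind of difference, with 1280 and 1229 counts but 19.4 and 14.97 TPM. There Cep72-202, of 343 bases, was listed at 2.62 TPM in pool 1 and at 0 in pool 2.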
